A study of Homo sapiens with 18 samples.

Results

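KO1.5 is 1 of 3 lines of SKmel147 melanoma cells that were edited to knock out ARID2, and it was profiled here by polyA RNA-seq as 2 libraries. It was chosen by its label, as the 2 KO1.5 columns of the SKmel147 count table, and set against the mean of the 2 control lines. Those 2 libraries are 2 of the 10 libraries of SKmel147 and of the 18 libraries of the whole series. SKmel147 is an established line from a metastatic melanoma of the NRAS-mutant subtype, grown in DMEM with serum. The parental line (Par) carries no construct. The control line labelled NT and KO1.5 as well as the other knockout lines, KO1.4 and KO3.20, were all made by stable infection with lentiviral Cas9 and a guide RNA in a PLKO vector, so the knockout lines share the infection with NT and not with Par. Each of the 5 lines gave 2 libraries. The labels do not say whether KO1.5 is a single clone or a pool of cells, and they do not give the guide or what NT stands for. The labels do not tell whether both libraries of a line are from separate cultures, so the p-values measure the spread between libraries, which may be technical.

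ARID2 is a DNA-binding subunit of PBAF, a form of the SWI/SNF chromatin remodeler that also holds PBRM1 and BRD7. SWI/SNF complexes use ATP to move nucleosomes, and PBAF subunits are mutated in a share of melanomas. Cell-cycle arrest is enforced by CDK inhibitors. The CIP/KIP family (CDKN1A, CDKN1B, CDKN1C) binds cyclin-CDK complexes, and the INK4 family (CDKN2A to CDKN2D) blocks CDK4 and CDK6. CDKN1A, which encodes p21, is the textbook target of p53, and p21 lowers transcription of replication and mitosis genes through RB, E2F and the DREAM complex.

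The deposited values were counts per gene, with totals between 21266522 and 35670140 per library. The KO1.5 libraries held 33509778 and 27378561 counts. Levels below are CPM, counts scaled to a common library size, with edgeR's TMM factors, and they are compared for 1 gene across libraries, never between genes. Differences are log2 fold changes ± standard error from 1 edgeR quasi-likelihood fit over the 10 libraries, with Benjamini-Hochberg adjustment over 18361 genes, and calls were made below an adjusted p of 0.05. All 10 libraries had the neural crest and melanoma factor SOX10 at 146 to 250 CPM and its partner MITF at 11.2 to 17.7 CPM. The pigment genes that mark differentiated melanocytes were low, with MLANA at most 1.46, PMEL at most 1.35, TYR at most 0.589 and DCT at most 0.189 CPM, and TYRP1 was at 6.37 CPM in Par replicate 1 and 0.137 to 0.697 CPM in the other 9 libraries. AXL (830 to 1468 CPM) and VIM (1755 to 3476 CPM), which mark undifferentiated melanoma cells, were present throughout. Summed endothelial markers were 5.94 to 32.5 CPM, with 8.47 and 10.1 in KO1.5, summed leukocyte markers 0.733 to 1.87 CPM, summed epithelial markers 87.9 to 141 CPM and summed fibroblast markers 6.52 to 12.6 CPM. The 2 libraries of a line differed beyond counting error in every line (chi-square divided by its degrees of freedom 13.6 to 35.2, and 25.3 in KO1.5).

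ARID2 RNA itself fell modestly in KO1.5. It stood at 55.4 and 46.0 CPM in KO1.5, against 72.8 and 67.3 in Par and 66.9 and 62.3 in NT. The log2 difference from the controls was -0.41 ± 0.11 (edgeR adjusted p = 0.038), and the call was lost when either NT library, either KO1.5 library or Par replicate 1 was left out (adjusted p = 0.052 to 0.29). KO3.20 lay lower, at 39.8 and 46.8 CPM (-0.64, adjusted p = 0.0038). KO1.4, at 56.5 and 57.0 CPM, gave -0.25 and was not called (adjusted p = 0.23). A guide can disrupt the protein without lowering the RNA, and neither the edited sequence nor the protein was measured here, so these levels are a weak check of the label.

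Against the controls, 2056 genes were called in KO1.5. Of all genes tested, 996 (5.42%) were higher and 1060 (5.77%) were lower, and 702 of the 2056 changed by more than 2-fold. The 2 control lines differed from each other by 1702 called genes (702 higher and 1000 lower in NT), 570 of them by more than 2-fold, so counts of this size also separate the lines used as controls. Among the genes called in KO1.5, 622 were called with the same sign in KO1.4 and KO3.20, comparisons that share the control libraries. Set directly against the mean of KO1.4 and KO3.20, a comparison in which the controls cancel, KO1.5 was higher for 389 genes (2.12%) and lower for 416 (2.27%). A gene is said to be set apart in KO1.5 below when it was called with 1 sign against the controls, against KO1.4 and against KO3.20. By that rule 63 genes (0.343% of those tested) were set apart higher and 70 (0.381%) lower. For 125 of these 133 the KO1.5 values lay outside the range of the 8 other libraries. The rule already requires a difference from those same libraries, so this separation describes the genes and adds no support. The same rule set apart 81 genes in KO1.4 (19 higher, 62 lower) and 109 in KO3.20 (60 higher, 49 lower).

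These counts rested on few libraries. Without KO1.5 replicate 1, 615 genes were called against the controls and 216 against the other knockout lines, and without KO1.5 replicate 2, 973 and 225. With each line counted as 1 sample, edgeR called 0 genes in either comparison, with 1853 and 1026 of 21060 genes at an unadjusted p under 0.05, and no other tool was run on that design. Across 15370 genes, which are not independent replicates, the log2 differences went with GC content (Spearman's rho -0.161 against the controls and -0.216 against the other knockout lines, beside -0.406 for NT minus Par and -0.571 between the 2 KO1.5 libraries). With each library's trend on GC content and transcript length removed, 4091 and 2022 genes were called, and the part of GC content in the results was not tested further.

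CDKN1A was the only 1 of the 7 CDK inhibitor genes to be called against the controls, and it was set apart in KO1.5. It measured 251 and 261 CPM in the KO1.5 libraries, 147 and 121 in Par, 106 and 119 in NT, 152 and 152 in KO1.4, and 155 and 142 in KO3.20. Both KO1.5 values lay far above all 8 others, which spanned 106 to 155 CPM. The mean was 256 CPM in KO1.5 against 123 in the controls, a log2 difference of 1.06 ± 0.10 (edgeR adjusted p = 5.48e-05). KO1.4 (0.31, adjusted p = 0.090) and KO3.20 (0.28, adjusted p = 0.10) were not called against the same controls. The direct differences were 0.75 ± 0.12 from KO1.4 (adjusted p = 0.0061) and 0.78 ± 0.12 from KO3.20 (adjusted p = 0.0030). Leaving out 1 library kept these sizes (0.74 to 0.77 and 0.72 to 0.85) but ended the call against KO1.4 without either KO1.4 library (adjusted p = 0.099 and 0.090) or without KO1.5 replicate 2 (0.051), and the call against KO3.20 without KO3.20 replicate 2 (0.057).

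**Figure D1:**
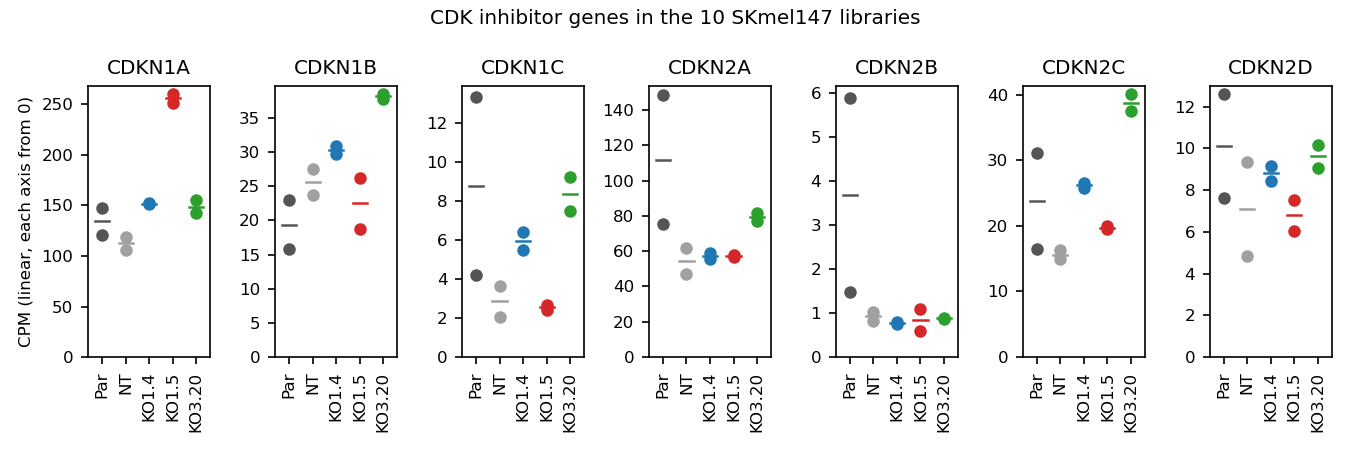
Levels of the CDK inhibitor genes in the 10 SKmel147 libraries. The vertical axis of each panel is CPM and the horizontal axis the 5 lines, with 1 point per library and a dash at the mean of the 2. CDKN1A at 251 and 261 CPM in KO1.5 stood above the other 8 libraries, while CDKN1B, CDKN1C and CDKN2C stood highest in KO3.20 among the knockout lines.

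The other inhibitors did not move with CDKN1A. CDKN1B, which encodes p27, was at 26.3 and 18.8 CPM in KO1.5, within the control range of 15.8 to 27.5 CPM (0.02, adjusted p = 0.96). CDKN2C, which encodes p18-INK4c, was at 19.9 and 19.5 CPM, also within the controls' 15.0 to 31.1 CPM (0.04, adjusted p = 0.93). CDKN1C, which encodes p57, was at 2.43 and 2.68 CPM against 2.07 to 13.3 CPM in the controls (-0.96, adjusted p = 0.15). CDKN2A, which encodes p16-INK4a and p14-ARF, was at 56.6 and 57.6 CPM against 47.3 to 149 CPM (-0.45, adjusted p = 0.20). CDKN2B (-1.13, adjusted p = 0.18) and CDKN2D (-0.31, adjusted p = 0.49) were not called either. The 7 genes had a median log2 difference of -0.31 from the controls, against -0.01 over all genes tested. Their median was 0.27 in KO1.4 and 0.28 in KO3.20 against the same controls. For NT minus Par it was -0.60, larger in size than that of KO1.5.

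In KO3.20, CDKN1B (0.78, edgeR adjusted p = 0.0081) and CDKN2C (1.01, adjusted p = 0.0042) were called higher than the controls and CDKN1C was not (0.75, adjusted p = 0.20). CDKN1B was 38.6 and 37.8 CPM in KO3.20, and KO1.5 lay lower by -0.76 ± 0.19 (edgeR adjusted p = 0.041). CDKN2C was 40.1 and 37.5 CPM in KO3.20, and KO1.5 lay lower by -0.98 ± 0.22 (adjusted p = 0.027). CDKN1C was 7.49 and 9.23 CPM in KO3.20, below Par replicate 2 (13.3 CPM), and KO1.5 lay lower by -1.71 ± 0.44 (adjusted p = 0.046). Against the mean of both other knockout lines none of these 3 was called (adjusted p = 0.073, 0.076 and 0.064).

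The promoter of CDKN1A is shown because that gene was the inhibitor called in KO1.5. It is the 250 bases before the start of the gene from RefSeq on build GRCh38.p14, chr6:36678464-36678713, plus strand, written 5′ to 3′. It was searched on both strands for the motifs of AP-1 (TGANTCA), MITF (CATGTG), TEAD (GGAATG) and the cell-cycle element CHR (TTTGAA), and held none of the 4, so nothing in it is capitalised. The known p53 sites of the gene lie farther upstream than this window.
CDKN1A: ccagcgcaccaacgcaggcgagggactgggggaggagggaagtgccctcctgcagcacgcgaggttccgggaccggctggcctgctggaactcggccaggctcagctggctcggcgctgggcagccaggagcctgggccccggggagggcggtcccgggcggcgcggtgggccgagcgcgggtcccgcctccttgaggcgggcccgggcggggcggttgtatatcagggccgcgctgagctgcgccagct

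The p53 list, which includes CDKN1A, was higher in KO1.5 than in the controls for most of its members. Of 35 members tested, 24 were called higher and 2 lower, beside 5.42% and 5.77% of all genes, and 9 were not called (TP53I11 was not tested). The median log2 difference was 0.59 in KO1.5, against 0.23 in KO1.4 (6 higher, 1 lower) and 0.24 in KO3.20 (7 higher, 1 lower), which share the controls, and 0.04 for NT minus Par. MDM4, a partner of MDM2 that inhibits p53, was one of the members that fell. It was at 118 and 108 CPM in KO1.5 against 122 to 173 CPM in the controls (-0.38 ± 0.11, edgeR adjusted p = 0.040), and it was not called against the other knockout lines (-0.24, adjusted p = 0.28).

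Members with different roles in the p53 response rose. MDM2, the ubiquitin ligase that degrades p53 and is its target, was at 259 and 217 CPM in KO1.5, 156 and 107 in Par, 153 and 117 in NT, 156 and 166 in KO1.4 and 149 and 165 in KO3.20. Both KO1.5 values were above the other 8, and the difference was 0.84 ± 0.15 from the controls (edgeR adjusted p = 0.0041) and 0.58 from the other knockout lines (adjusted p = 0.052). BTG2, an antiproliferative factor, was at 26.9 and 22.5 CPM against 6.62 to 12 in the controls and 13.2 to 14.4 in the other knockout lines (1.37 ± 0.19, adjusted p = 0.00076; 0.82 from the other knockout lines, adjusted p = 0.030). FAS, a death receptor, was at 13.4 and 13.4 CPM against 3.57 to 7.46 in the controls (1.24, adjusted p = 0.0079; 0.99 from the other knockout lines, adjusted p = 0.045). FDXR, a mitochondrial reductase, was at 13.4 and 17.1 CPM against 4.43 to 8.07 in the controls (1.41, adjusted p = 0.00050), but it was also at 10.6 to 12.9 CPM in the other knockout lines and did not differ from them by the test (0.36, adjusted p = 0.33). FDXR was called higher in each of the 3 knockout lines, and BTG2 and FAS were not called in KO1.4 or KO3.20. Taken singly against KO1.4 and KO3.20, neither BTG2 (0.85, adjusted p = 0.079, and 0.79, adjusted p = 0.065) nor FAS (1.08, adjusted p = 0.095, and 0.90, adjusted p = 0.11) passed the test.

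**Figure D2:**
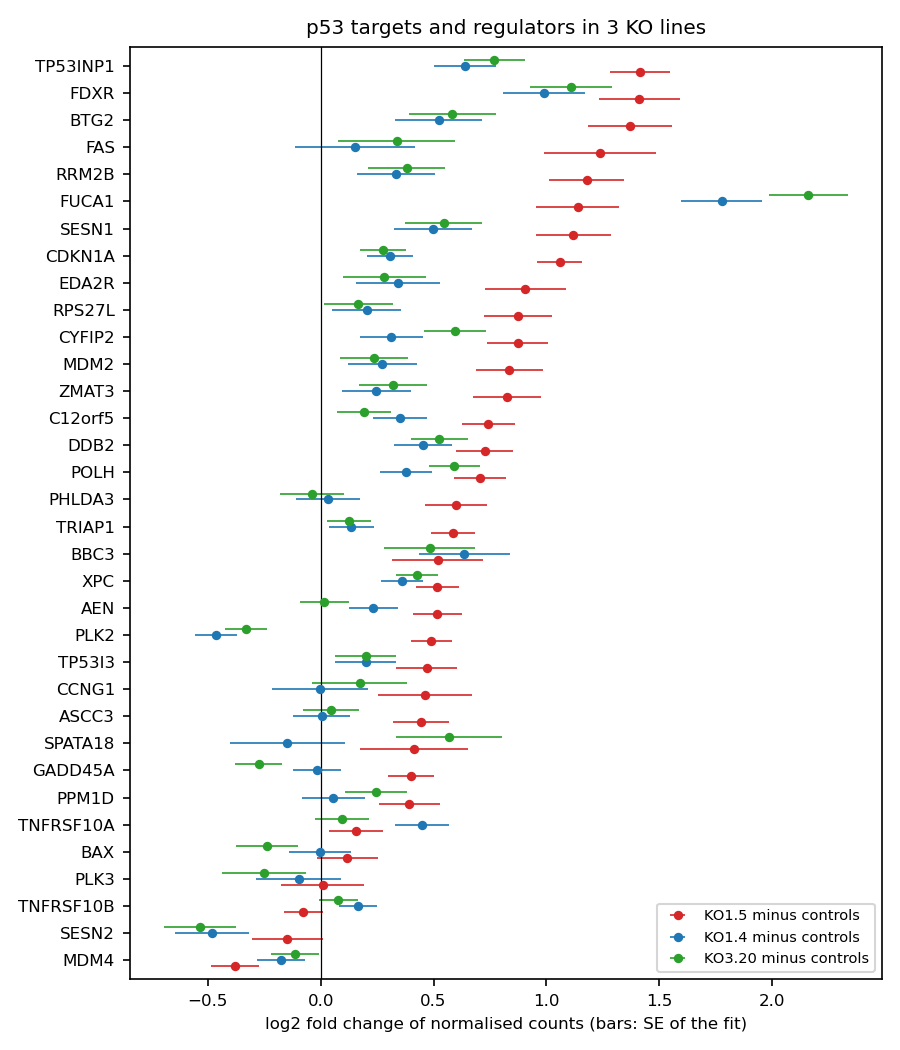
Log2 fold changes of the members of the p53 list in KO1.5, KO1.4 and KO3.20 against the mean of the 2 control lines. Each row is a gene, the horizontal axis is the log2 fold change, the 3 colours are the 3 knockout lines, which share the controls, and bars are standard errors of the fit. One tested member is not drawn. Most KO1.5 points lie to the right of 0, with 24 of 35 called higher.

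Against KO1.4 and KO3.20, 11 members of the p53 list were higher in KO1.5 and 1 was lower, beside 2.12% and 2.27% of all genes. The 11 were CDKN1A, TP53INP1, FAS, GADD45A, BTG2, RRM2B, C12orf5, PLK2, PHLDA3, TRIAP1 and RPS27L, and the gene lower was FUCA1, a lysosomal fucosidase (-0.83). The median of the list in this comparison was 0.39, and 29 of 35 members were positive. Without any 1 of the 6 knockout libraries 2 to 5 members were called higher. PLK2, a kinase of the polo family, was set apart in KO1.5 at 289 and 308 CPM, against 198 to 227 in the controls, 155 and 153 in KO1.4 and 160 and 177 in KO3.20 (0.49 ± 0.09, edgeR adjusted p = 0.0050, and 0.89 from the other knockout lines, adjusted p = 0.00027). GADD45A, a stress sensor that slows the G2/M transition, was at 110 and 118 CPM, inside the 66.8 to 121 CPM of the controls (0.40, adjusted p = 0.028; 0.55 from the other knockout lines, adjusted p = 0.011). C12orf5 encodes TIGAR, which restrains glycolysis, and PHLDA3 is an inhibitor of AKT.

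TP53INP1, a partner of p53 in stress signalling, was the third member set apart, at 74.5 and 60.4 CPM against 19.4 to 28.0 in the controls and 39.0 to 44.4 in the other knockout lines (1.41 ± 0.13, edgeR adjusted p = 6.0e-05; 0.71 from the other knockout lines). RRM2B, the p53-induced ribonucleotide reductase subunit, was at 101 and 77.9 CPM against 28.3 to 49.1 in the controls and 47.3 to 55.0 in the other knockout lines (1.18, adjusted p = 0.00099). Both genes lie on a stretch of chromosome 8 whose genes were high as a block in KO1.5, described below, and TNFRSF10A, TNFRSF10B, BAX and BBC3 also lie on chromosomes 8 or 19. Without the genes of those chromosomes, 22 of 29 members were higher and 2 lower than the controls (median 0.60), and 9 were higher and 1 lower than in the other knockout lines (median 0.42). The size of the list's difference was thus as large without them.

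DRAM1, a lysosomal protein that links p53 to autophagy, was among the 10 genes set apart higher that ranked first by the naming rule. It was at 61.8 and 54.1 CPM in KO1.5, 24.9 and 23.9 in Par, 28.3 and 21.6 in NT, 30.5 and 31.1 in KO1.4, and 23.3 and 24.6 in KO3.20. The KO1.5 values did not overlap those of any other line (1.23 ± 0.12, edgeR adjusted p = 6.4e-05; 1.09 from the other knockout lines).

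Genes of the cell cycle changed less than the p53 list, and those that were called were all lower in KO1.5 than in the controls. Of 32 DNA replication and S phase genes tested, 8 were called lower and 0 higher, beside 5.77% and 5.42% of all genes, with a median of -0.18 (KO1.4 -0.10, with 2 lower; KO3.20 -0.08, with 1 higher and 4 lower; NT minus Par 0.20). The 8 were MCM5, MCM10, ORC1, GINS4, CDC45, POLE, UHRF1 and CHAF1A, which load and fire replication origins, copy DNA or maintain chromatin behind the fork. CDC45, part of the replicative helicase, gave -0.63, GINS4 of the same helicase -0.57, the origin recognition subunit ORC1 -0.52 and MCM10 -0.47. GINS4 was the only one called against the other knockout lines (-0.56). It lies on chromosome 8, where neighbouring genes moved as blocks in KO1.5, as described below. Without KO1.5 replicate 1 or 2 the count of lower genes dropped to 1 and 2.

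Of 32 G2/M and mitosis genes, 4 were called lower and 0 higher, beside 5.77% and 5.42% of all genes, with a median of -0.18 (KO1.4 -0.07, with 2 lower; KO3.20 -0.04, with 4 lower; NT minus Par 0.24). They were CENPF, a kinetochore protein (-0.70, edgeR adjusted p = 0.00076, beside 0.58 for NT minus Par), CDC20, an activator of the anaphase-promoting complex (-0.50), the mitotic kinase PLK1 (-0.47) and AURKB, the kinase of the chromosomal passenger complex (-0.39). None of the 32 was called against the other knockout lines. Of 19 genes of the G1 cyclins, CDKs and the RB-E2F axis, 4 were called lower and 0 higher, against the same shares of all genes, with a median of -0.04 (NT minus Par 0.17), and 0 were called against the other knockout lines. Those 4 were CDK2 (-0.58, adjusted p = 0.0041), the phosphatase CDC25A that activates it (-0.50, adjusted p = 0.0069), CCND3 (-0.46) and CDK4 (-0.37).

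The CHR element TTTGAA, which binds the DREAM complex through LIN54, was found within 250 bases before the start in 15 of the 26 G2/M genes with a RefSeq promoter (57.7%). It was found in 971 of the 11097 tested genes with one (8.75%), in 1 of 28 replication genes (3.57%) and in 2 of 27 genes of the p53 list. The promoters of PLK1 (chr16:23678639-23678888, plus strand) and CDC20 (chr1:43358731-43358980, plus strand), from GRCh38.p14, are shown because both genes fell in KO1.5 and held a match. For CENPF and AURKB, the other G2/M genes called lower, no CHR match was found. Capitals mark CHR matches on either strand, the match in PLK1 starting 29 bases before the gene and those in CDC20 at 178 and 65 bases before it. A match is a run of letters and not a measured binding site.
PLK1: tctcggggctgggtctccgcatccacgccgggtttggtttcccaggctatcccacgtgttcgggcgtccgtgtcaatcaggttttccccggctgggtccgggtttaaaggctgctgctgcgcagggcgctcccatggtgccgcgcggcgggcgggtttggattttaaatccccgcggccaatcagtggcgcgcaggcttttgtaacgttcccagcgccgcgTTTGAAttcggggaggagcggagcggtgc
CDC20: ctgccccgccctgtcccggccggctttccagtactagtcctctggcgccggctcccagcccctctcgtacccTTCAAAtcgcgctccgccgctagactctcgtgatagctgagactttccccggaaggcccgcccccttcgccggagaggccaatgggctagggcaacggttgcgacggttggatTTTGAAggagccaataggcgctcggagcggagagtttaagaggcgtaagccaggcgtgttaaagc

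CTGF, a matricellular protein induced by YAP and TGF-beta, was set apart in KO1.5. It was at 174 and 181 CPM in KO1.5, 122 and 123 in Par, 129 and 113 in NT, 104 and 110 in KO1.4, and 105 and 112 in KO3.20. Both KO1.5 libraries were above the other 8, which lay close together. The difference was 0.55 ± 0.09 from the controls (edgeR adjusted p = 0.0024) and 0.72 from the other knockout lines (adjusted p = 0.0010).

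CTGF belongs to 2 of the lists. Over all genes, 5.42% were higher and 5.77% lower than the controls, and 2.12% higher and 2.27% lower than the other knockout lines. Of 26 TGF-beta response genes, 8 were higher and 2 lower than the controls (median 0.16), and 4 were higher (TGFB2, CTGF and INHBA among them) and 2 lower (LTBP1, TGFB1) than the other knockout lines (median -0.08). The ligand TGFB1 was at 9.09 and 9.31 CPM in KO1.5 and at 23.9 to 45.4 CPM in the other knockout lines (-1.8, edgeR adjusted p = 0.0029), but at 7.13 to 25.3 CPM in the controls. The ligand TGFB2 was at 39.4 and 33.1 CPM in KO1.5 and at 15.1 to 21.8 CPM in the other knockout lines (0.94, adjusted p = 0.012). Of 20 YAP/TEAD factors and targets, 3 were higher and 2 lower than the controls (median 0.13). Against the other knockout lines, 4 were higher (CYR61, CTGF, CRIM1, TGFB2) and 2 lower (WWTR1, AXL), with a median of 0.10. AXL lies on chromosome 19, part of which was low as a block in KO1.5, as described below. CYR61, a close relative of CTGF, was at 516 and 587 CPM in KO1.5, within the 514 to 731 CPM of the controls and above the 324 to 411 CPM of the other knockout lines.

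The promoter of CTGF (CCN2 in RefSeq; GRCh38.p14, chr6:131951373-131951622, minus strand) is shown because it is known for its TEAD sites, and the gene rose in KO1.5. Capitals mark GGAATG, the TEAD motif, which starts 169, 104 and 95 bases before the gene. The motif was present in 1033 of the 11097 promoters (9.31%), in 5 of the 31 promoters of genes set apart higher (16.1%) and in 1 of the 41 of genes set apart lower (2.44%). Another member of the YAP/TEAD list with the motif in its promoter was called lower than the controls in KO1.5. The share over all promoters was 4.06% for AP-1 and 5.8% for MITF.
CTGF: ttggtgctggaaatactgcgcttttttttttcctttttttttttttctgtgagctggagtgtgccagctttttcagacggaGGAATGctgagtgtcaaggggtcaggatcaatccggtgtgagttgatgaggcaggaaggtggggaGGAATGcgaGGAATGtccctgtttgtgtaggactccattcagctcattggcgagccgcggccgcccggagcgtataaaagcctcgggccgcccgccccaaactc

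Others of the 10 genes that ranked first among those set apart higher had diverse roles. FLNC, a filamin that crosslinks actin, was at 75.7 and 96.5 CPM in KO1.5 against 6.41 to 25.4 in the controls, 34.6 and 32.3 in KO1.4 and 39.7 and 33.4 in KO3.20 (2.90 from the controls, 1.30 from the other knockout lines). It was thus higher in all 3 knockout lines than in any control library, and highest in KO1.5. IL32, a proinflammatory cytokine, was at 35.6 and 41.9 CPM against 10.4 to 23.5 in the controls, 19.2 and 17.4 in KO1.4 and 13.8 and 10.9 in KO3.20 (1.37 and 1.36). LRRC15, a membrane protein of mesenchymal cells, was at 23.5 and 26.0 CPM, near Par replicate 1 (20.3 CPM) and above the 6.30 to 12.1 CPM of the others (1.01 and 1.75). GABRA5, a GABA receptor subunit, was at 12.7 and 10.9 CPM against 3.83 to 6.24 CPM in the other 8 libraries (1.17 and 1.06). KRTAP2-3, a hair keratin-associated protein with near-identical copies among which counts may be split, was at 406 and 507 CPM against 179 to 374 in the controls and 105 to 227 in the other knockout lines (0.90 and 1.58). The histone gene HIST1H2BD, whose reads may likewise be shared with copies, was at 8.91 and 9.64 CPM against 2.54 to 4.63 CPM elsewhere (1.32 and 1.33).

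Genes set apart lower included some that were almost silent in KO1.5. HTRA1, a secreted serine protease, was at 1.12 and 0.806 CPM in KO1.5, 15.9 and 53.6 in Par, 21.8 and 33.4 in NT, 11.8 and 11.9 in KO1.4, and 39.1 and 33.8 in KO3.20 (-4.97 from the controls, -4.40 from the other knockout lines). ERBB2, the HER2 receptor tyrosine kinase, had 8 and 14 counts in KO1.5, or 0.237 and 0.513 CPM, against 9.30 to 18.3 CPM in the controls, 10.3 and 8.80 in KO1.4 and 3.79 and 2.29 in KO3.20 (-5.12 and -3.88). BST1, an ectoenzyme that makes cyclic ADP-ribose, had 6 and 10 counts in KO1.5 (-4.84 and -3.37). No KO1.5 value of these 3 genes overlapped another line.

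Matrix genes were also among those set apart lower. TIMP3, a matrix-bound inhibitor of metalloproteases, was at 1.63 and 1.43 CPM in KO1.5, 23.5 and 30.8 in Par, 9.16 and 8.61 in NT, 17.1 and 16.0 in KO1.4, and 66.9 and 67.0 in KO3.20 (-3.33 and -4.43). The knockout lines thus lay on both sides of the controls for TIMP3. COL5A2, a chain of type V collagen, was at 2.28 and 1.54 CPM against 26.1 to 34.2 in the controls, 15.0 and 12.2 in KO1.4 and 12.6 and 11.2 in KO3.20 (-3.92 and -2.72). ADAMTS4, an aggrecanase, was at 1.24 and 1.65 CPM against 4.14 to 14 in the controls and 3.92 to 7.98 in the other knockout lines (-2.58 and -1.98). PRRX1, a mesenchymal homeobox factor, was at 2.37 and 1.94 CPM against 5.64 to 9.20 in the controls and 6.09 to 9.91 in the other knockout lines (-1.74 and -1.93). C9orf64 was at 2.07 and 2.57 CPM against 5.47 to 8.14 CPM in the other 8 libraries (-1.55 and -1.55). Of 26 collagens and matrix genes, with the shares of all genes at 5.42% and 5.77% against the controls and 2.12% and 2.27% against the other knockout lines, 5 were higher and 5 lower than the controls (median 0.09), and 1 was higher and 4 lower than the other knockout lines. Of 18 metalloproteases and inhibitors, 3 were higher and 3 lower than the controls, and 1 was higher and 2 lower than the other knockout lines.

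**Figure D3:**
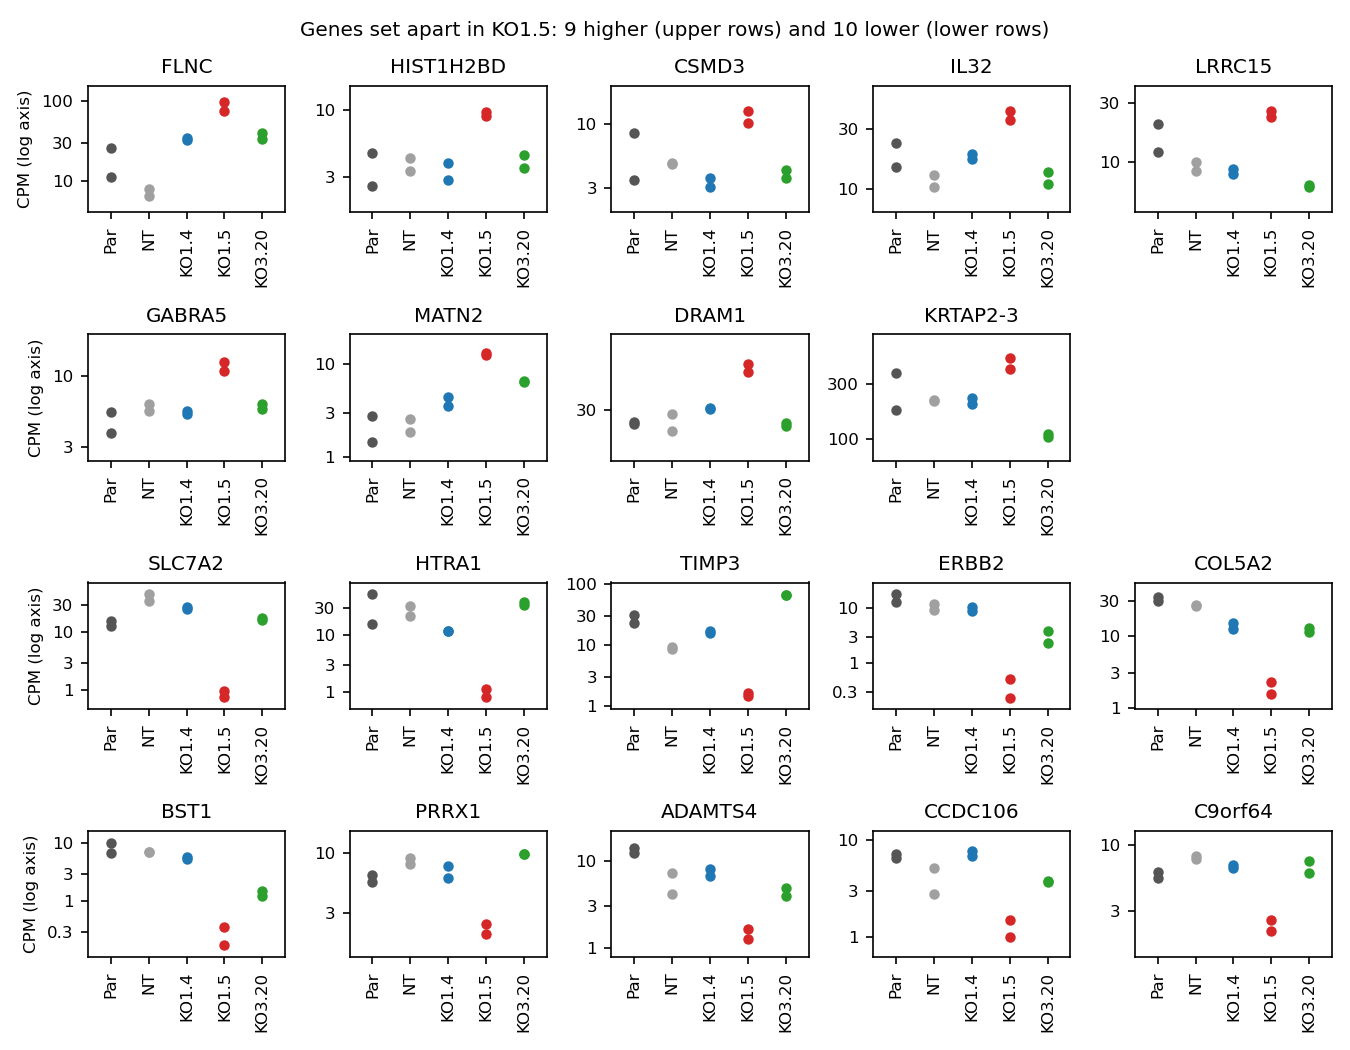
Levels of genes set apart in KO1.5 in the 10 SKmel147 libraries. Each panel is a gene, the vertical axis is CPM on a log scale and the horizontal axis the 5 lines, with 1 point per library. The KO1.5 points lie at one end of each panel, as for FLNC at 75.7 and 96.5 CPM and HTRA1 at 1.12 and 0.806 CPM.

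Neighbouring genes on chromosomes 8 and 19 moved together in KO1.5. Protein-coding genes were ordered along each chromosome and taken in blocks of 50, and 3 stretches were then chosen after the block medians were seen. Over the first 150 genes of chromosome 8, from ZNF596 to VDAC3, the median log2 difference was -0.30 from the controls and -0.42 from the other knockout lines, and 139 of the 150 genes lay below 0 in the latter. Over the next 309 genes, from SLC20A2 to C8orf33, the median was 0.37 from the controls and 0.31 from the other knockout lines, with 260 genes above 0. Over the last 410 genes of chromosome 19, from GGN to MZF1, it was -0.26 and -0.35, with 355 genes below 0. This stretch was not even, since its block from ETFB to LENG1 had a median of -0.09 from the other knockout lines. Singly, that block gave 0.09 from KO1.4 and -0.27 from KO3.20. Over the 3 whole stretches, the medians against KO1.4 and KO3.20 taken singly were -0.42 and -0.42, 0.31 and 0.30, and -0.35 and -0.35. NT and Par differed by 0.18, 0.24 and -0.15 over the same stretches. With adjustment for GC content the KO1.5 medians were -0.29, 0.37 and -0.19 from the controls and -0.42, 0.29 and -0.29 from the other knockout lines. Whole chromosomes also differed between the other lines. On chromosome 9 the KO1.5 median was 0.21 from KO1.4 and -0.01 from KO3.20. On chromosomes 20 and 21 it was 0.28 and -0.32 from KO3.20, and -0.03 and 0.03 from KO1.4. NT minus Par was 0.39 on chromosome 13 and -0.53 on chromosome 22.

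The stretches stood apart in both KO1.5 libraries. Values were centred per gene on the mean of the 2 control lines, which places Par and NT around 0. The first stretch of chromosome 8 then had a median of -0.26 and -0.28 in KO1.5 and -0.10 to 0.15 in the other 8 libraries. The second stretch had 0.43 and 0.35 in KO1.5 and -0.13 to 0.20 elsewhere. For chromosome 19 the values were -0.33 and -0.17 in KO1.5 and -0.20 to 0.19 elsewhere, so that KO1.5 replicate 2 overlapped NT replicate 1 there. No DNA was measured, and whether copy number, chromatin or another cause moved these blocks was not tested.

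**Figure D4:**
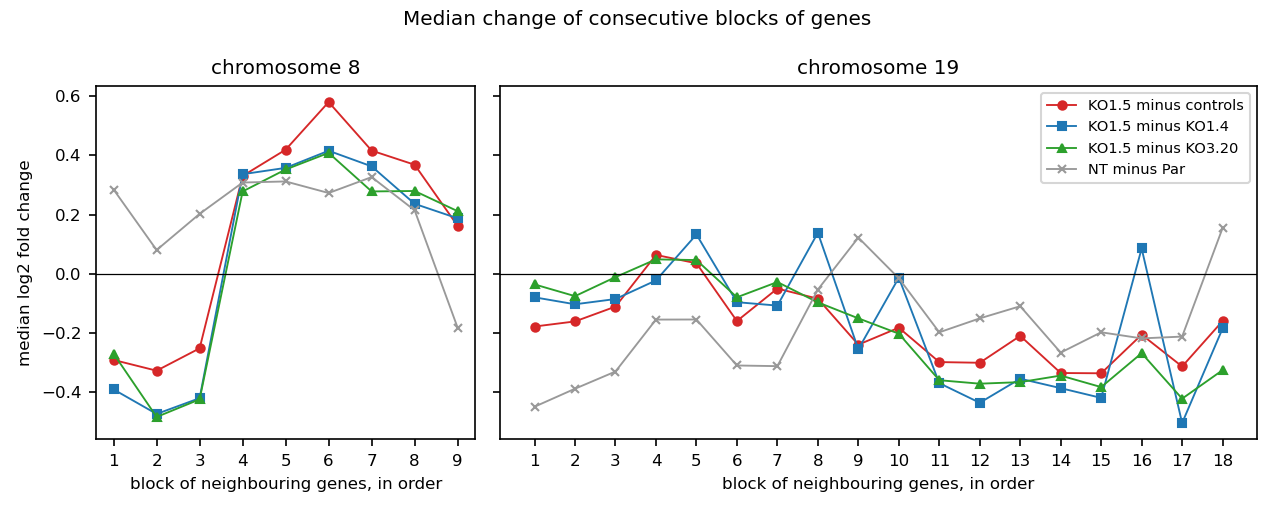
Median log2 fold change of blocks of 50 neighbouring protein-coding genes along chromosomes 8 and 19. The horizontal axis is the order of the blocks and the vertical axis the median log2 fold change of KO1.5 against the controls, KO1.4 and KO3.20, with NT minus Par in grey. On chromosome 8 the medians go from -0.30 over the first 150 genes to 0.37 over the next 309 against the controls.

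Part of what set KO1.5 apart lay on chromosome 8. Of the 125 genes set apart that have a known chromosome, 15 higher and 12 lower were on chromosome 8. That chromosome holds 522 of the 15375 tested genes with a known chromosome. On chromosome 19, which holds 983 of the 15375, 0 were higher and 9 lower. Taken in both directions, its share of the genes set apart was near its share of the genes tested. Without the genes of both chromosomes, 97 genes were set apart (48 higher, 49 lower), and 1763 and 618 genes were called against the controls and against the other knockout lines. SLC7A2, a transporter of cationic amino acids in the first stretch of chromosome 8, was at 0.977 and 0.770 CPM in KO1.5 against 12.7 to 44.9 in the controls and 16.0 to 26.7 in the other knockout lines (-4.75 ± 0.21, edgeR adjusted p = 4.6e-07; -4.57 from the other knockout lines), far below the median of its neighbours. MATN2, a matrix protein, was at 13.2 and 12.7 CPM against 1.46 to 2.80 in the controls and 3.57 to 6.64 in the other knockout lines (2.6 and 1.35). CSMD3, a large membrane protein, was at 12.7 and 10.1 CPM against 3.07 to 8.5 CPM elsewhere (1.08 and 1.66). SNAI2, the SLUG repressor of epithelial genes, was at 102 and 93.4 CPM against 28.2 to 60.4 in the controls and 54.9 to 66.5 in the other knockout lines (1.16 and 0.69). GINS4 was at 23.4 and 21.4 CPM against 28.8 to 35.9 CPM in the other 8 libraries. On chromosome 19, CCDC106 was at 1.01 and 1.5 CPM against 2.78 to 7.27 in the controls and 3.69 to 7.79 in the other knockout lines (-2.07 and -2.07), and the zinc finger gene ZNF880 had 0 counts in KO1.5, which puts its level in the controls at least 83.5-fold higher, taking a floor of 3 counts over the 2 libraries.

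The genes with the largest changes against the controls that were not set apart failed the test against at least 1 of the other knockout lines. AFF2, a transcription elongation factor on the X chromosome, was at 0.296 and 0.147 CPM in KO1.5 and 0.378 and 0.206 in KO1.4, against 9.03 to 11.1 in the controls and 10.1 and 10.7 in KO3.20. KO1.5 did not differ from KO1.4 by the test (-0.29, edgeR adjusted p = 0.89) and differed from KO3.20 by -5.48. SLITRK2, a synaptic adhesion protein of the X chromosome, had the same order, with 0.355 and 0.733 CPM in KO1.5, 0.944 and 1.51 in KO1.4, 13.9 and 13.4 in KO3.20 and 21.8 to 25.6 in the controls. PDE10A, a cyclic nucleotide phosphodiesterase, was at 0.178 and 0.183 CPM in KO1.5, 0.0944 and 0.447 in KO1.4, 1.8 and 2.36 in KO3.20 and 9.09 to 14.6 in the controls. TSSC2 was high in KO1.5 (13.7 and 16.6 CPM) and KO3.20 (10.3 and 9.20 CPM) and at 0.305 to 0.817 CPM in the controls and KO1.4. SERPINB2, the plasminogen activator inhibitor PAI-2, was at 58.3 and 57.0 CPM in KO1.5, 37.7 and 35.0 in KO1.4, 17.4 and 19.4 in KO3.20 and 1.12 to 7.86 in the controls (3.45; 1.16 from the other knockout lines, adjusted p = 0.12). PTCHD4, a p53-induced patched-domain protein, gave 2.64 against the controls and 0.75 against the other knockout lines, and the loci RP11-241F15.1 and RP11-417J8.6 gave 3.09 and 2.62 against the controls. ARHGAP30 (-4.80) and CD33 (-4.72) were low in all 3 knockout lines.

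Stress and lipid pathways had members that were lower than the controls in all 3 knockout lines. Over all genes, 5.77% were lower and 5.42% higher in KO1.5 than in the controls. Of 24 genes on the list of the integrated stress response with amino acid synthesis, 13 were lower and 1 higher than the controls (median -0.59), with 10 lower and 2 higher in KO1.4 (median -0.44) and 13 lower and 2 higher in KO3.20 (median -0.53), all against the same controls. Against the other knockout lines 5 were lower and 1 higher (median -0.12), beside 2.27% and 2.12% of all genes. NT minus Par had a median of 0.25 on this list. Without KO1.5 replicate 1, 8 of the 24 were lower than the controls. SHMT2, the mitochondrial serine hydroxymethyltransferase, gave -1.12, PHGDH and PSAT1 of serine synthesis -1.0 and -0.92, and VLDLR -1.57 against the controls. ALDH1L2, a mitochondrial folate enzyme, gave -2.80 against the controls and 1.56 against the other knockout lines, the latter made up of 2.37 from KO1.4 and 0.75 from KO3.20 (adjusted p = 0.22). Of 23 genes of cholesterol synthesis and uptake, 6 were lower and 0 higher in KO1.5 than in the controls (median -0.23), against 9 lower and 1 higher in KO1.4 (median -0.42) and 14 lower and 1 higher in KO3.20 (median -0.54). NT minus Par, with a median of -0.34 on this list, differed by more than KO1.5 did from the controls. LSS, FDFT1 and FDPS, enzymes of the pathway, were among the 6. LSS was not called against NT alone (-0.52, edgeR adjusted p = 0.090).

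Genes of class II antigen presentation were lower in KO1.5 than in the other knockout lines. The genes named here and in the next paragraphs for their difference from the other knockout lines lie outside the naming rule and were chosen after their values were seen. Of 26 antigen presentation genes, 12 were higher and 2 lower than the controls in KO1.4 (median 0.48), 11 and 2 in KO3.20 (median 0.45), and 3 and 4 in KO1.5 (median 0.15), where 5.42% and 5.77% of all genes were called. Compared directly, 7 were lower and 0 higher in KO1.5 (median -0.38), beside 2.27% and 2.12% of all genes, and all 7 belong to the class II pathway. CIITA, its master transactivator, was at 41.2 and 44.8 CPM in KO1.5, 102 and 93.1 in KO1.4, 122 and 116 in KO3.20 and 24.1 to 72.0 in the controls (-1.33 ± 0.26, edgeR adjusted p = 0.016). Singly, it was called against KO3.20 (-1.47, adjusted p = 0.014) and not against KO1.4 (-1.18, adjusted p = 0.062). HLA-DRA (-1.09), HLA-DPA1 (-0.88), HLA-DPB1 (-1.26), HLA-DMA (-0.96), HLA-DMB (-1.38) and HLA-DOA (-1.12) were the others. HLA-DPA1 was at 1101 and 1065 CPM in KO1.5, 1877 and 1949 in KO1.4, 2151 and 2008 in KO3.20, 427 and 474 in NT, and 577 and 1052 in Par, so KO1.5 lay between the controls and the other knockout lines and overlapped neither. NT minus Par gave a list median of -0.76, larger in size than any of the 3 knockout medians. Class II genes are usual in antigen-presenting leukocytes, and the summed leukocyte markers were at 0.733 to 1.87 CPM in these libraries. Of 27 interferon-stimulated genes, 1 was higher and 3 lower than the controls, and 4 were lower than the other knockout lines (IFIT1, IFIT3, MX2 and IFI44L).

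Some secreted inflammatory factors were higher in KO1.5 than in the other knockout lines. Of 26 senescence-associated secretory genes, 5 were higher and 5 lower than the controls (median -0.02), beside 5.42% and 5.77% of all genes. Against the other knockout lines 6 were higher and 2 lower (median 0.23), beside 2.12% and 2.27%. Those higher included the neutrophil chemokines IL8, CXCL1 and CXCL2, the monocyte chemokine CCL2 and IL1B, and those lower were IGFBP3 and IGFBP4, which bind insulin-like growth factors. IL8 was at 72.7 and 50.04 CPM in KO1.5, 46.1 and 48.8 in KO1.4, 16.4 and 13.6 in KO3.20, 19.9 and 19.2 in NT and 69.5 and 149 in Par. The difference from both other knockout lines (1.2 ± 0.24, edgeR adjusted p = 0.015) came mainly from KO3.20 (2.03) and not KO1.4 (0.37, adjusted p = 0.66), and the controls spanned the KO1.5 values. IL1B likewise differed from KO3.20 by 2.45 and from KO1.4 by 0.02 ± 0.14 (adjusted p = 0.98). IL6 was at 15.8 and 15.7 CPM in KO1.5 against 2.34 to 13.1 in the controls (1.75 ± 0.25, adjusted p = 0.0010), and did not pass the test against the other knockout lines (0.85, adjusted p = 0.077). NT minus Par had a median of -0.71 on this list.

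**Figure D5:**
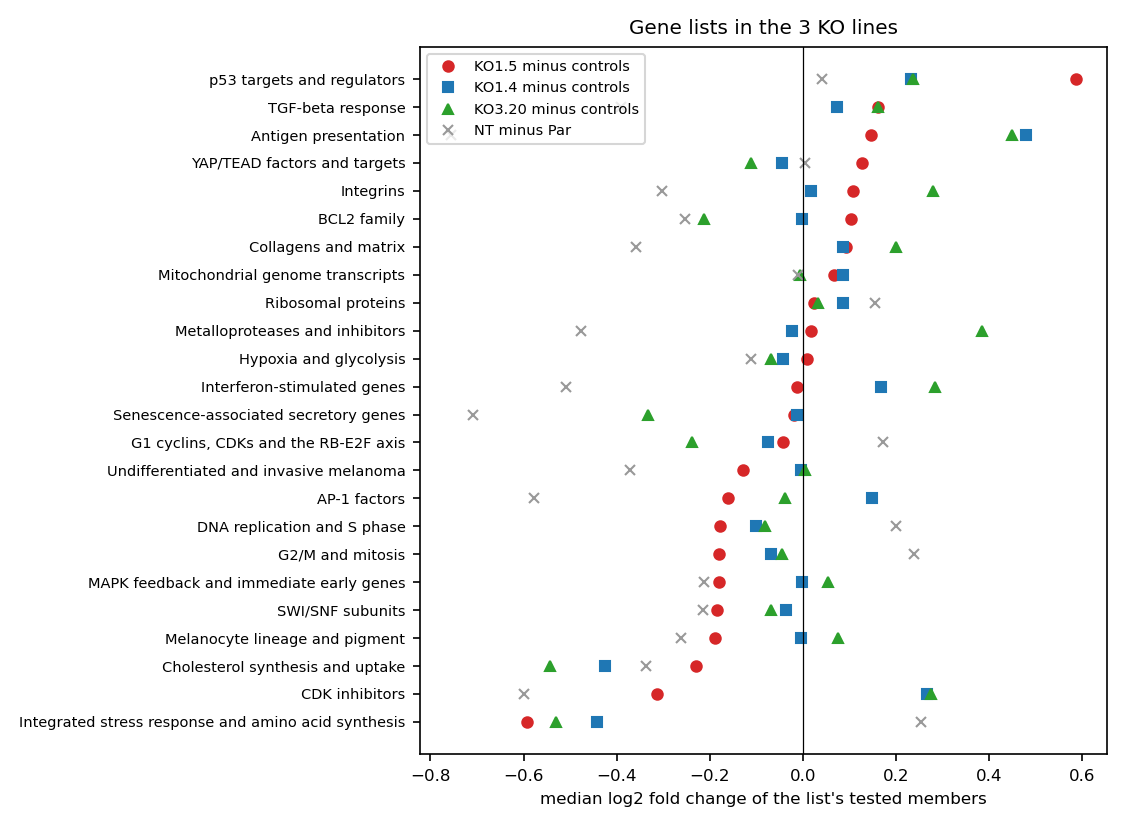
Median log2 fold change of the tested members of each gene list. Each row is a list, the horizontal axis is the median log2 fold change, and the marker shapes are KO1.5, KO1.4 and KO3.20 against the controls, which they share, and NT minus Par. The p53 list stands at 0.59 in KO1.5 and at 0.23 and 0.24 in KO1.4 and KO3.20, and the integrated stress response list at -0.59, -0.44 and -0.53.

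The remaining lists are given by the same counts, beside 5.42% of all genes higher and 5.77% lower than the controls, and 2.12% higher and 2.27% lower than the other knockout lines. Of the 13 melanocyte lineage genes tested out of 23, 0 were higher and 1 lower than the controls, and TFAP2A (-0.60) and ERBB3 were lower than the other knockout lines. ERBB3, a neuregulin receptor and partner of ERBB2, was at 2.93 and 3.56 CPM in KO1.5 and 1.35 to 3.64 in the controls, but 10.2 and 7.87 in KO1.4 and 17.3 and 16.8 in KO3.20 (-1.94 ± 0.27, edgeR adjusted p = 0.0020). Of 26 genes of undifferentiated and invasive melanoma, 6 were higher and 4 lower than the controls, and 3 were higher and 2 lower than the other knockout lines. Of 21 MAPK feedback and immediate early genes, 2 were higher and 2 lower than the controls, and 3 were lower than the other knockout lines. EGR1, an immediate early factor, was at 5.80 and 5.65 CPM in KO1.5, 2.02 to 2.72 in the controls, 9.30 and 9.59 in KO1.4 and 17.1 and 12.5 in KO3.20. Of 15 BCL2 family genes, 1 was higher and 3 lower than the controls, and 3 were higher and 1 lower than the other knockout lines.

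Higher and lower calls against the controls numbered 2 and 1 of 15 AP-1 factors, 2 and 1 of 14 integrins, 1 and 3 of 23 hypoxia and glycolysis genes, and 0 and 3 of 27 SWI/SNF subunits. Against the other knockout lines they numbered 0 and 1, 0 and 0, 0 and 2, and 0 and 0. The 2 of 32 ribosomal protein genes that were higher than the controls, RPL7 and RPS20, both lie on chromosome 8. No mitochondrial genome transcript of the 13 was called in either comparison. Among markers of other cell types, 2 of 4 endothelial genes tested were lower and 1 of 4 epithelial genes was higher than the controls, and none of 3 leukocyte or 3 fibroblast genes was called against the controls.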

How the data were processed

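The series holds polyA RNA-seq of melanoma lines, for which the labels' protocols name a directional library kit. The authors deposited raw counts per gene symbol for SKmel147. STAR 2.6.0, featureCounts and GRCh37/hg19 are named in the submitters' processing notes, and neither the annotation release nor the strand setting is given there. No filter on reads is recorded. Overlapping, antisense and near-identical genes may therefore share reads.

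Groups came from the sample titles. Of 56629 symbols, 35353 matched the GENCODE annotation of GRCh38, used only for chromosomes, gene order, GC content and length, 1279 of them by an older symbol. edgeR 4.0.16 in R 4.3.3 fitted the 10 libraries with 1 coefficient per line, TMM scaling and filterByExpr, and glmQLFTest gave contrasts of KO1.5 with the mean of Par and NT, the mean of KO1.4 and KO3.20, and each knockout line, with Benjamini-Hochberg adjustment. The code was tested on simulated data. Named genes are the 10 per direction set apart, of mean log2 CPM at least 2 and changed by more than NT from Par, ranked by the smallest of their 3 differences, then the 5 per direction with the largest remaining change against the controls, up to 4 called members per list by smallest p, all CDK inhibitors, MDM2 and ARID2. The line, the 28 gene lists and the naming rule were chosen with earlier results of these data known, so they are no independent support. Some genes that met the naming rule are not reported here. DESeq2 1.42.0, other scalings, filters, designs and left-out libraries were alternatives. Promoters are RefSeq's 250 bases before each gene on GRCh38.p14, a newer build than that of the counts, matched by symbol. Their coordinates are of that build.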

Additional observations from a re-analysis of the deposited data

Results flagged for a closer look

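The genes below met the rule of being set apart, which already requires a call against KO1.4 and against KO3.20, so their log2 differences from the mean of those lines describe the size and add no support. They are those that the naming rule gave and that are named in the report. PLK2, named outside that rule, had 0.89. Among genes higher in KO1.5 it was 1.75 for LRRC15, 1.66 for CSMD3, 1.58 for KRTAP2-3, 1.36 for IL32, 1.35 for MATN2, 1.33 for HIST1H2BD, 1.30 for FLNC, 1.09 for DRAM1 and 1.06 for GABRA5. It was 0.77 for CDKN1A, 0.72 for CTGF, 0.71 for TP53INP1 and 0.69 for SNAI2. Among genes lower in KO1.5 it was -0.56 for GINS4, -1.55 for C9orf64, -1.93 for PRRX1, -1.98 for ADAMTS4, -2.07 for CCDC106 and -2.72 for COL5A2. The genes farthest below the other knockout lines were BST1 (-3.37), ERBB2 (-3.88), HTRA1 (-4.40), TIMP3 (-4.43) and SLC7A2 (-4.57).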

How the results depend on the processing

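KO1.5 is 1 line with 2 libraries, so a difference of the line cannot be told apart from a difference of its culture or its libraries, and at low counts, as for ERBB2, depth limits the size of the fold. Leaving out 1 library gave 615 to 2689 genes called against the controls, 216 to 426 without any 1 of the 6 knockout libraries against the other knockout lines, 36 to 232 set apart, and 436 to 2375 for NT against Par. ARID2 then ranged from -0.54 to -0.27, and CDKN1A from 0.74 to 0.77 against KO1.4 and 0.72 to 0.85 against KO3.20. Lower replication genes numbered 1 to 12, lower stress response genes 8 to 16, and p53 list members above the other knockout lines 2 to 5. Medians of the first stretch of chromosome 8 ranged from -0.30 to -0.26 against the controls and -0.47 to -0.38 against the other knockout lines, and of the second from 0.36 to 0.44 against the controls. Those of the chromosome 19 stretch ranged from -0.34 to -0.18 against the controls and from -0.42 to -0.27 against the other knockout lines. CDKN1B, which was not called, ranged from -0.24 to 0.25 and was below 0 without Par replicate 1 (-0.10), NT replicate 2 (-0.03) or KO1.5 replicate 1, and CDKN2C ranged from -0.16 without Par replicate 1 to 0.30.

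In what follows, counts against the controls, against the other knockout lines, and set apart are named in that order. Calls over 2-fold numbered 702, 319 and 60. With GC content and length corrected they were 4091, 2022 and 457, with 13 lower replication genes and 21 p53 list members above the other knockout lines, and with the replicate block added 3905, 1845, 435, 13 and 20. DESeq2's Wald test set apart 223 genes and put 17 p53 list members above the other knockout lines. With no filter on low counts these were 299 and 19, and 1451 genes were called against the other knockout lines. Fits of only the lines compared called 1055 and 1761 genes, with 4 lower replication genes and ARID2 at -0.40 (edgeR adjusted p = 0.11). These fits put 20 p53 list members above the controls and 19 above the other knockout lines. With each line as 1 sample, 0 genes were called in either comparison, and therefore 0 of each list, with CDKN1A at 1.04 (adjusted p = 0.24) and ARID2 at -0.40. Against NT alone ARID2 was -0.35 and not called, 5 replication genes were lower, and ITGA5 (0.14), CDKN1B (-0.18) and CDKN2A (0.068) changed sign. Against Par alone CDKN2C was -0.26. The cause of these changes was not tested, other than that some fits hold fewer samples or genes.

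Over the 5 lines replicate numbers did not pair the libraries (correlations of deviations -0.27 to 0.32). Among Par, NT and KO1.5 they were all positive (0.16 to 0.32), and in these lines replicate 1 minus 2 went with GC content (rho -0.61 to -0.52), while in KO1.4 and KO3.20 rho was 0.35 and 0.49. With the replicate block alone, 1922, 777 and 126 genes were called. For the named genes set apart, 292 alternative values kept sign and call, 28 lost the call and 0 changed sign, and for the other named genes 1188 kept both, 234 lost the call, 10 gained it and 8 changed sign.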

Other observations

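Some histone genes outside the lists, chosen after their values were seen, were high in KO1.5. HIST1H2AC, which encodes a core histone H2A and has a polyadenylated form, was at 37.2 and 31.9 CPM in KO1.5, 6.11 to 13.1 in the controls, 10.1 and 10.3 in KO1.4, and 17 and 19 in KO3.20 (1.8 ± 0.21 from the controls, edgeR adjusted p = 0.00032; 1.35 from the other knockout lines, adjusted p = 0.0044). HIST1H2BK was at 25.6 and 26.3 CPM against 10.7 to 15.6 CPM in the other 8 libraries (0.94 and 1.03), and HIST2H2BE gave 0.75 and 0.84. H1F0, a linker histone of differentiated cells, was lower in KO1.5, at 30.8 and 33.1 CPM against 42.9 to 93.2 CPM in the other 8 libraries (-0.94 and -0.82), and H2AFY2, a macroH2A gene, gave -0.98 and -0.82. The libraries were made from polyA RNA, which holds only a share of histone messages, and the H2B genes have near-identical copies among which reads may be split.

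Hair keratin genes, also chosen after their values were seen, were high in KO1.5 and in Par. KRT81 was at 77.2 and 104 CPM in KO1.5, 144 and 126 in Par, 16.6 and 16.9 in NT, 20.1 and 22.4 in KO1.4, and 3.55 and 2.66 in KO3.20. KRT86 had the same order of lines except that KO1.5 (22.3 and 28.6 CPM) overlapped Par (29.8 and 21.7 CPM). KRT81 and KRT86 are close copies, and their counts are uncertain for that reason.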
